A study of Rattus norvegicus with 15 samples.

Results

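Neurotrophins are secreted growth factors on which neurons depend for survival, branching and synaptic strength, and here 7 genes of this system were followed in the inferior colliculus (IC), the midbrain auditory nucleus in which audiogenic seizures start. The genes were the ligands *Bdnf* and *Ntf3*, the receptor tyrosine kinases *Ntrk2* and *Ntrk3*, the receptors *Ngfr* and *Sort1*, and *Vgf*, a neuropeptide precursor induced by neurotrophins. They are 7 of the 14506 genes measured under a name, chosen by their symbol in the annotation of the array, and each was represented by 1 probe set. RNA from the IC of male rats aged 12 weeks was hybridized to Affymetrix Rat Gene 1.0 ST arrays. There were 5 arrays of sound-stimulated Wistar Audiogenic Rats (WAR S), 2 of sound-stimulated Wistar rats (Wistar S), 4 of naïve WAR (WAR N) and 4 of naïve Wistar rats (Wistar N). WAR were bred from Wistar rats for seizures in response to loud sound. The stimulated rats were killed 60 min after the sound, and the label of each naïve array says that the animal was exposed to nothing. According to the study's methods, stimulated WAR had tonic-clonic seizures and stimulated Wistar rats had none, but no seizure score is tied to an array. If this held for the array rats, strain and seizure cannot be told apart in the stimulated comparison. The design text of the series describes every animal as stimulated, and the label of each array was followed instead. The labels give Ribeirão Preto as the source of WAR and Charles River Laboratories as that of Wistar rats. The methods of the study name a facility of the University of São Paulo for both strains, which differs from the labels at least for Wistar rats. For the arrays, these methods count more stimulated rats of each strain than there are stimulated arrays here. If the labels hold, strain and supplier cannot be told apart. The design text counts as many animals of each strain as there are arrays, but no source ties an array to an animal, and the p-values measure the spread between these arrays.

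Neurotrophins are made as larger proforms that proteases cut into mature factors. The mature factors bind Trk receptors, BDNF preferring TrkB (*Ntrk2*) and neurotrophin-3 preferring TrkC (*Ntrk3*), and these signal through Ras, phospholipase C and phosphoinositide 3-kinase. The proforms bind p75 (*Ngfr*) together with sortilin (*Sort1*), a pair that can trigger cell death. In the brain, *Bdnf* and *Vgf* are known as genes that neuronal activity switches on, in part through the transcription factor CREB, and BDNF signaling through TrkB has been studied widely in epilepsy.

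The RefSeq promoters of *Vgf* and *Bdnf* are shown because both genes are activity-induced and the CREB sites known in them can be seen there. Of the 7 members, 4 had an entry (*Bdnf*, *Ntf3*, *Sort1* and *Vgf*). Each sequence is the 250 bases before an annotated start in the assembly GRCr8, read 5′ to 3′ on the strand of the gene. Capitals mark the motifs searched on both strands. These were the full CREB site TGACGTCA, its shorter form TGACG that lies within it, the E-box CACGTG that USF proteins bind, and the TATA box TATAAA. The *Vgf* window lies at chr12:25277021-25277270 on the minus strand, and the *Bdnf* window, the fourth of 6 annotated starts, at chr3:116637608-116637857 on the plus strand.
Vgf: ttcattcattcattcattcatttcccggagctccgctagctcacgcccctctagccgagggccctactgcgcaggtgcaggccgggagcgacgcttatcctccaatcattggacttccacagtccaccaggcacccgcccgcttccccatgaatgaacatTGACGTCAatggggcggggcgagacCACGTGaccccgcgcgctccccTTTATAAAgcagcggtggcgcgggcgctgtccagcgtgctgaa
Bdnf: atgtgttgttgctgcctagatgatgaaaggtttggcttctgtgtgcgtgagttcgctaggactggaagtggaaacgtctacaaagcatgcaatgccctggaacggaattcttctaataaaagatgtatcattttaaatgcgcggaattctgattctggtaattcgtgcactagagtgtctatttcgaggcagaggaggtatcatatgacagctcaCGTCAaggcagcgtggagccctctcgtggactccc
The *Vgf* window held the full CREB site from 90 to 83 bases before the start, an E-box from 65 to 60 bases before it, and a TATA box on each strand, overlapping between 43 and 36 bases before it. The *Bdnf* window held the short form on the opposite strand, read there as CGTCA, from 35 to 31 bases before the start. None of these motifs lay in the windows of *Ntf3* or *Sort1*, and the other 5 *Bdnf* windows held only a TATA box on the opposite strand, in the second, 250 to 245 bases before the start. Of 33469 such windows in the table, 1.59% held the full site, 18.2% the short form, 5.59% the E-box and 12.9% the TATA box. These matches describe the sequence and say nothing of what bound there in the rats.

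The deposited values are on a log2 scale after RMA normalization, and values of different genes were not compared in level. Between 2675 and 3286 probe sets held an identical value in each pair of stimulated arrays, against 2 to 13 in each pair of naïve arrays. The number was 0 in every pair of a stimulated and a naïve array. The parts were thus taken to have been processed separately, normalization included, and the strains were compared only within a part. One naïve array stood apart. On the first principal component of the naïve arrays (62.8% of the variance), Wistar N replicate 1 lay at −23.2, where the other Wistar N arrays lay between 32.0 and 36.9 and the WAR N arrays between −22.7 and −12.7. Over the 60 genes called between the stimulated strains, however, it lay with the Wistar arrays (−0.25, against −0.30 to −0.27 in the other Wistar N arrays and 0.19 to 0.35 in WAR N, as mean centred log2 values turned in the direction of WAR). The naïve results of the members and the counts of the gene lists are therefore given with and without it. Of 7 midbrain markers 2 were measured, *En2* (log2 fold change −0.28 in naïve rats, limma adjusted p = 0.162, and −0.44, adjusted p = 0.00115, without that array) and *Meis2* (0.019, adjusted p = 0.916, and 0.14, adjusted p = 0.139).

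With limma and Benjamini-Hochberg adjustment over all genes, 0 of the 7 members passed an adjusted p of 0.05 in stimulated WAR against stimulated Wistar rats, where 0.414% of all genes were called. No member had an unadjusted p under 0.05 in that comparison. Of 25 alternative settings for *Bdnf*, limma called it in 1, with array weights. The share of all genes called in that setting is not given here. Between WAR N and Wistar N limma called 2 members, *Ntrk3*, which was higher in WAR, and *Vgf*, which was lower, where 20.9% of all genes were called. A count of 2 in 7 is thus near the share of genes in general. Without Wistar N replicate 1, limma called 5 members, *Bdnf* and *Vgf* lower and *Ntrk2*, *Ntrk3* and *Sort1* higher in WAR N, where 41.1% of all genes were called. The median log2 fold change of the members was −0.04 in stimulated and 0.02 in naïve rats, beside 0.01 and 0.02 over all genes.

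**Figure D1:**
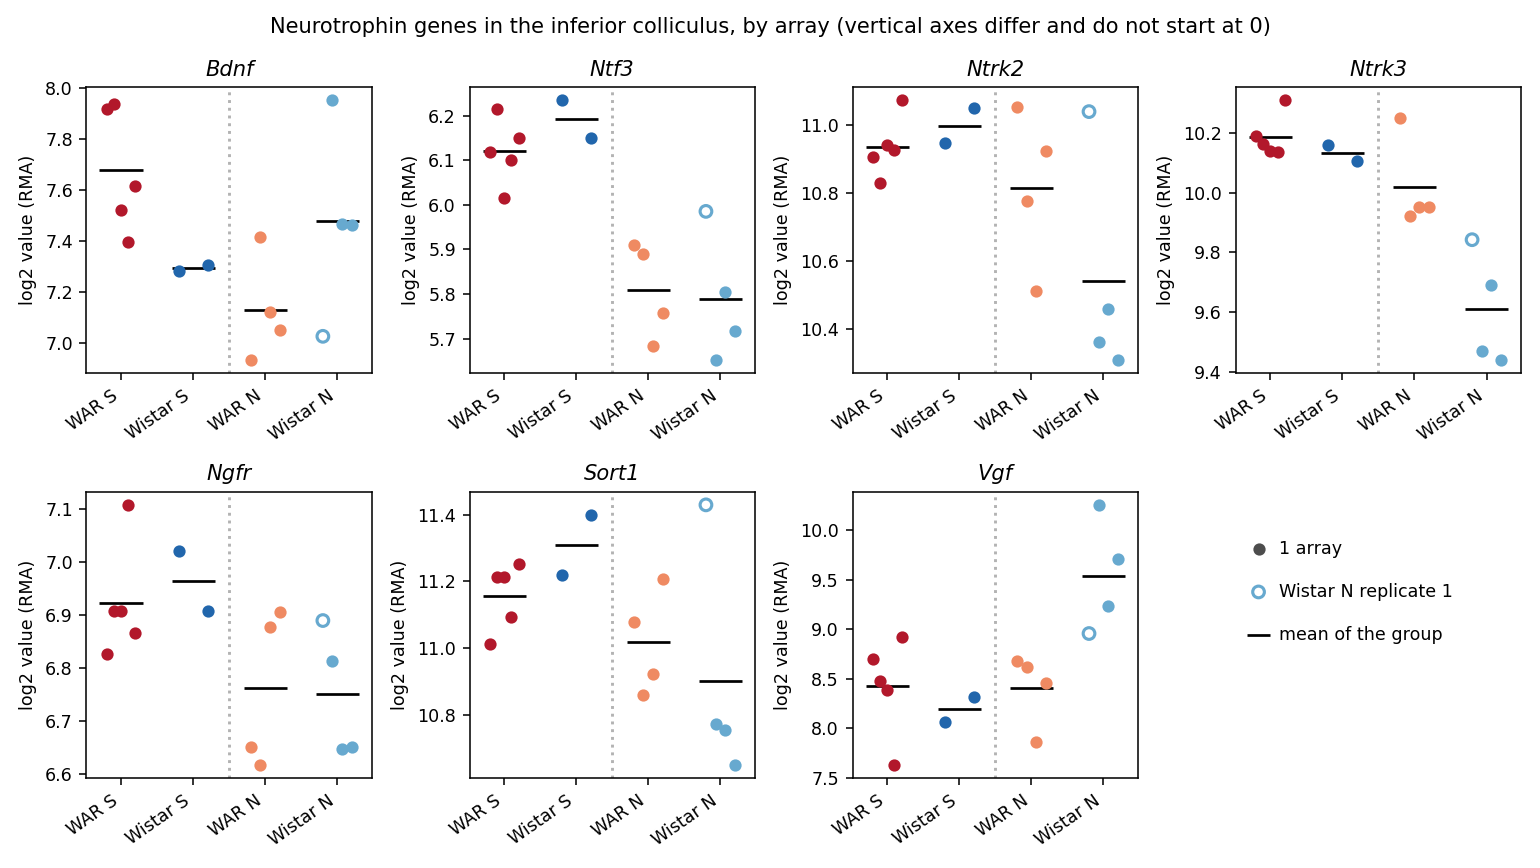
RMA log2 values (vertical axes, which differ and do not start at 0) of the 7 genes on each of the 15 arrays, with WAR left of Wistar for stimulated (S) and naïve (N) rats. Points are arrays, black bars group means, and the open circle is Wistar N replicate 1. All *Vgf* values of WAR N (7.86 to 8.67) lie below those of Wistar N (8.96 to 10.26), and all *Ntrk3* values of WAR N lie above those of Wistar N.

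Of the ligands, *Bdnf* (probe set 10852620), which encodes brain-derived neurotrophic factor, had log2 values of 7.92, 7.94, 7.52, 7.40 and 7.62 in WAR S, against 7.28 and 7.30 in Wistar S. Every WAR S array was thus above both Wistar S arrays, a separation that 20.7% of all genes showed in one direction or the other. *Bdnf* averaged 7.68 ± 0.24 in the 5 WAR arrays and 7.29 ± 0.02 in the 2 Wistar arrays (mean ± SD), and the log2 fold change of 0.38 ± 0.21 (SE) did not pass limma's test (95% confidence interval −0.06 to 0.83, adjusted p = 0.872). An exact two-sided permutation test gave p = 0.0952, where 5 arrays against 2 allow no p below 0.0476, and it was 1 of 14 such tests, of each member in each part. With array weights in limma the difference was 0.46 (adjusted p = 0.0172), and over all alternatives the adjusted p ranged from 0.0172 to 1. In naïve rats *Bdnf* had 6.93, 7.41, 7.12 and 7.05 in WAR N, against 7.03, 7.95, 7.47 and 7.46 in Wistar N. The groups overlapped through Wistar N replicate 1 (7.03), and the other Wistar N arrays were above every WAR N array. The log2 fold change was −0.35 ± 0.17 (SE), which limma did not call (adjusted p = 0.175), and without Wistar N replicate 1 it was −0.50 (adjusted p = 0.0188). It was −0.19 without Wistar N replicate 2, the highest array (adjusted p = 0.452). Within label set 1 of the arrays it was −0.07 (adjusted p = 0.908) and within label set 2 it was −0.62 (adjusted p = 0.0316). The label sets are runs of arrays that share a pattern of numbers in the sample descriptions, and no source names them as batches. Both Wistar S arrays were in set 1, whereas WAR S had 3 arrays in set 1 and 2 in set 2. Within set 1 the stimulated difference of *Bdnf* was 0.53 (unadjusted p = 0.0251 and adjusted p = 0.604 in limma).

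*Ntf3* (probe set 10865724), the gene of neurotrophin-3, varied little. It lay between 6.02 and 6.22 in WAR S, against 6.15 and 6.23 in Wistar S, and between 5.68 and 5.91 in WAR N, against 5.65 to 5.99 in Wistar N. Its log2 fold change was −0.07 in stimulated rats (95% confidence interval −0.28 to 0.13) and 0.02 in naïve rats (−0.15 to 0.19), or 0.09 without Wistar N replicate 1. *Ntf3* was among the 3627 dimmest genes by mean level, which one alternative left out, and the other 6 members were not. *Ntf4* (probe set 10706807), which encodes neurotrophin-4, the second ligand of TrkB, had log2 fold changes of 0.0051 (−0.17 to 0.18) in stimulated rats and 0.05 (−0.10 to 0.20) in naïve rats, or 0.0096 without Wistar N replicate 1. On 5 of the 7 stimulated arrays, both of Wistar S among them, *Ntf4* held the identical value 5.91, which makes the spread look smaller. Limma called neither ligand (adjusted p of 1 in stimulated rats, and of 0.885 and 0.677 in naïve rats). The signs of the naïve values, and of *Ntf4* in stimulated rats, turned under cyclic loess.

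Of the Trk receptors, *Ntrk3* (probe set 10722864), encoding TrkC, was the member that was higher in naïve WAR. Its log2 values were 10.25, 9.92, 9.95 and 9.95 in WAR N, against 9.84, 9.47, 9.69 and 9.44 in Wistar N. All 4 WAR N arrays were above all 4 Wistar N arrays, with Wistar N replicate 1 closest to WAR, and groups did not overlap for 13.4% of all genes. The means were 10.02 ± 0.15 (SD, n = 4) in WAR N and 9.61 ± 0.19 (SD, n = 4) in Wistar N. The log2 fold change was 0.41 ± 0.10 (SE; 95% confidence interval 0.20 to 0.61), a 1.33-fold higher value, with an adjusted p of 0.00955 in limma, and the exact permutation test gave p = 0.0286, the smallest that 4 arrays against 4 allow. Without Wistar N replicate 1 the difference was 0.48 (adjusted p = 0.000544). The call was lost when only the naïve arrays entered the limma model (adjusted p = 0.0767). In stimulated rats the values met, with 10.19, 10.16, 10.14, 10.13 and 10.31 in WAR S, against 10.16 and 10.10 in Wistar S. The log2 fold change there was 0.05 (95% confidence interval −0.19 to 0.30).

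*Ntrk2* (probe set 10797089), encoding the BDNF receptor TrkB, had 11.05, 10.77, 10.51 and 10.92 in WAR N, against 11.04, 10.36, 10.46 and 10.31 in Wistar N. All WAR N arrays were above Wistar N replicates 2, 3 and 4, and Wistar N replicate 1 was level with the highest WAR N array. The log2 fold change of 0.27 ± 0.15 (SE) was not called by limma (adjusted p = 0.202), and without Wistar N replicate 1 it was 0.44 (adjusted p = 0.00397). In stimulated rats *Ntrk2* lay between 10.83 and 11.07 in WAR S, around the 10.95 and 11.05 of Wistar S. The log2 fold change was −0.06 (95% confidence interval −0.43 to 0.31). The probe sets stand for a gene, so that the kinase-bearing and truncated forms of TrkB and TrkC were not told apart here.

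*Ngfr* (probe set 10746538), encoding p75, showed no difference beyond the spread. Its values ran between 6.83 and 7.11 in WAR S, against 6.91 and 7.02 in Wistar S, and between 6.62 and 6.91 in WAR N, against 6.65 to 6.89 in Wistar N. The log2 fold changes were −0.04 (95% confidence interval −0.27 to 0.18) and 0.01 (−0.18 to 0.20), or 0.06 without Wistar N replicate 1, with signs that turned under some alternatives. WAR S replicates 2 and 3 and Wistar S replicate 2 held the same value to the last digit, 6.91, which makes the spread look smaller.

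*Sort1* (probe set 10818326), encoding sortilin, which carries BDNF in neurons and binds the proforms with p75, followed the pattern of *Ntrk2* in naïve rats. It had 11.08, 10.86, 10.92 and 11.21 in WAR N, against 11.43, 10.77, 10.75 and 10.65 in Wistar N. Wistar N replicate 1 was above every other naïve array, and the other Wistar N arrays were below every WAR N array. The log2 fold change was 0.12 ± 0.14 (SE, limma adjusted p = 0.603), and without Wistar N replicate 1 it was 0.29 (adjusted p = 0.0179). In label set 1, which holds that array, the sign turned (−0.070). In stimulated rats the values were 11.01, 11.21, 11.21, 11.09 and 11.25 in WAR S, against 11.22 and 11.40 in Wistar S. The groups overlapped, and WAR S differed from Wistar S by −0.15 on the log2 scale (95% confidence interval −0.51 to 0.21).

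*Vgf* (probe set 10757489) had the largest difference among the members. Its protein is packed into dense-core granules and cut into secreted peptides, some of which act at synapses. The log2 values were 8.67, 8.62, 7.86 and 8.46 in WAR N, against 8.96, 10.26, 9.24 and 9.71 in Wistar N. All WAR N arrays were below all Wistar N arrays, with WAR N replicate 3 the lowest and Wistar N replicate 2 the highest. The means were 8.40 ± 0.37 (SD, n = 4) in WAR N and 9.54 ± 0.57 (SD, n = 4) in Wistar N. *Vgf* was 2.20-fold lower in WAR N (log2 fold change −1.14 ± 0.29 SE, 95% confidence interval −1.77 to −0.51, limma adjusted p = 0.0152), and the exact permutation test gave p = 0.0286, the smallest possible. Without Wistar N replicate 1 the difference was −1.33 (adjusted p = 0.00196), and without WAR N replicate 3 it was −0.96 and just past the threshold (adjusted p = 0.0504). Within label set 1 it was −0.69 (adjusted p = 0.214) and within label set 2 it was −1.59 (adjusted p = 0.025), each with 2 arrays of either strain. For *Ntrk3* the values within the sets were 0.44 (adjusted p = 0.208) and 0.37 (adjusted p = 0.0445).

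In stimulated rats *Vgf* had 8.70, 8.48, 8.38, 7.63 and 8.93 in WAR S, against 8.07 and 8.31 in Wistar S. WAR S spanned the Wistar S values, with replicate 4 below them and the other 4 arrays above. The log2 fold change was 0.23 ± 0.35 (SE) with a wide 95% confidence interval of −0.51 to 0.98, and limma gave an adjusted p of 1. A difference as large as the naïve one, −1.14, lies outside this interval. Within label set 1, which holds both Wistar S arrays, the stimulated difference was 0.51 (limma adjusted p = 0.808).

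**Figure D2:**
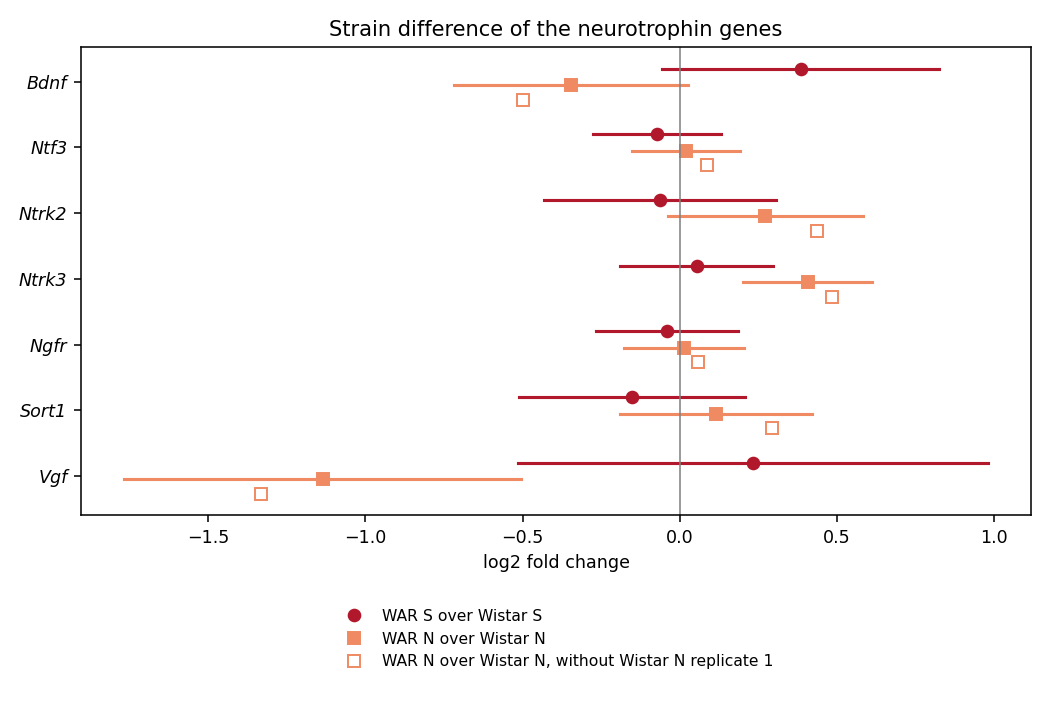
Log2 fold change of WAR over Wistar (horizontal axis) for each gene in stimulated rats (circles) and naïve rats (filled squares), with bars for the 95% confidence interval. Open squares give the naïve value without Wistar N replicate 1. The intervals of *Ntrk3* and *Vgf* in naïve rats are the ones that exclude 0, and in stimulated rats every interval includes 0.

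Whether the strain difference itself differed between stimulated and naïve rats was tested as an interaction, taking each difference within its own part. The strain difference of *Vgf* was 1.37 ± 0.46 (SE) higher on the log2 scale in stimulated rats (95% confidence interval 0.39 to 2.35, unadjusted p = 0.00943 in limma), that of *Bdnf* was 0.73 ± 0.27 higher (0.16 to 1.31, unadjusted p = 0.0165), and that of *Ntrk3* was −0.35 ± 0.15 (−0.67 to −0.03, unadjusted p = 0.0326). None passed after adjustment over all genes (adjusted p of 0.190, 0.229 and 0.281), and 0 of the 7 members were called, where 0.103% of all genes were called. Without Wistar N replicate 1, limma called 5 members, where 20.4% of all genes were called. These were *Vgf* (1.56, adjusted p = 0.0183) and *Bdnf* (0.88, adjusted p = 0.0144), with the strain difference higher after sound, and *Ntrk3* (−0.43, adjusted p = 0.0315), *Ntrk2* (−0.50, adjusted p = 0.0348) and *Sort1* (−0.44, adjusted p = 0.0299), with the strain difference lower. With all 15 arrays kept and array weights in limma, 5 members were called. The share of all genes called in that setting is not given here, so this count is not read as a result about the members.

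Some markers of cell types differed between the naïve strains, with counts to be read against the 20.9% of all genes called there, or 41.1% without Wistar N replicate 1. Of 9 measured endothelial markers, limma called 5 higher and 0 lower in WAR N, and their mean log2 value lay between 7.93 and 8.38 in WAR N, against 7.17 to 8.06 in Wistar N, where replicate 1 had 8.06 and the other arrays at most 7.20. Without that array 8 of 9 were higher. Among microglial markers 4 of 10 were higher in WAR N, with a mean of 8.13 to 8.23, against 7.80 to 7.93 in Wistar N (4 higher and 2 lower without replicate 1). Among astrocyte markers 3 of 10 were lower, with a mean of 10.84 to 11.02 in WAR N, against 11.16 to 11.35 in Wistar N (1 higher and 4 lower without replicate 1). For neurons as a whole 2 of 10 markers were lower, *Nefm* (−1.04, adjusted p = 0.0268) and *Eno2* (−0.38, adjusted p = 0.0196), and the mean level was 10.93 to 11.20 in WAR N, against 10.85 to 11.36 in Wistar N (3 higher and 2 lower without replicate 1). Of 4 measured markers of GABAergic neurons, *Gad1* (−0.83, adjusted p = 0.00251) and *Slc32a1* (−1.14, adjusted p = 0.00232) were lower, and the mean was 8.46 to 8.89 in WAR N, against 9.02 to 9.42 in Wistar N (0 higher and 2 lower without replicate 1). Of 3 markers of glutamatergic neurons, *Slc17a6* was lower (−0.62, adjusted p = 0.0143, and −0.81 without replicate 1), and the mean was 7.62 to 7.71 in WAR N, against 7.80 to 8.03 in Wistar N. The precursor markers of oligodendrocytes *Pdgfra* (−0.63, adjusted p = 0.00754) and *Gpr17* (−0.78, adjusted p = 0.00653) were lower, 2 of 4 measured (1 higher and 2 lower without replicate 1). Of 8 fibroblast markers, *Dcn* (1.45, adjusted p = 0.0116) and *Ptgds* (0.77, adjusted p = 0.0288) were higher and *Col1a2* (−0.33, adjusted p = 0.019) was lower (3 higher and 1 lower without replicate 1). Their mean was 7.48 to 7.71 in WAR N, against 7.17 to 7.84 in Wistar N, where replicate 1 had 7.84 and the other arrays at most 7.30. Of 10 markers of the cerebellum, which borders the IC, limma called *Cbln1* (−0.89, adjusted p = 0.00515) and *Barhl1* (−0.66, adjusted p = 0.00765) lower in WAR N. However, 6 of the 10 had a log2 fold change above 0. The mean was 6.49 to 6.66 in WAR N, within the 6.46 to 6.79 of Wistar N. Without replicate 1 2 were higher and 3 lower. In stimulated rats, where 0.414% of all genes were called, 2 of 9 endothelial markers and 1 of 10 microglial markers were higher in WAR S. The endothelial mean was 8.08 to 8.48 in WAR S, against 7.33 to 7.43 in Wistar S. Of 10 astrocyte markers limma called 0, and their mean was 11.05 to 11.26 in WAR S, against 11.46 to 11.48 in Wistar S. Of 10 neuronal markers limma called 0 and 1 had an unadjusted p under 0.05. No defining marker of these lists is listed at 0, but signal over background cannot be had from RMA values, so that this does not show detection. The part of these markers in the differences of *Vgf* and *Ntrk3* was not tested, and in whole tissue fewer cells of a type and less RNA per cell cannot be told apart.

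The wider pathway was described with 8 lists that hold 121 genes, of which 104 were measured. Between WAR S and Wistar S limma called 0 of them and 6 had an unadjusted p under 0.05, and between WAR N and Wistar N it called 22, 12 higher and 10 lower, which is 21.2% and close to the 20.9% of all genes. Without Wistar N replicate 1 the naïve count was 46, or 44.2%, where 41.1% of all genes were called. No count of a single list is read here beyond these shares. Among the other ligands and receptors of the family (3 measured), *Sorcs2*, a sortilin relative that binds proBDNF together with p75, was lower in WAR N (−0.42, adjusted p = 0.0125), alone of the list with and without that array. Among 14 genes of proneurotrophin processing and release, 1 was higher and 3 were lower (1 and 5 without that array). *Cpe*, the carboxypeptidase that trims peptides in secretory granules and sorts proBDNF, was lower by 0.82 in log2 value (11.48 ± 0.40 in WAR N and 12.30 ± 0.24 in Wistar N, SD, n = 4 each, adjusted p = 0.00553). *Pcsk2*, a granule convertase, was at −0.47 (adjusted p = 0.0211), and *Hap1*, which links BDNF vesicles to transport along axons, at −0.60 (adjusted p = 0.028). *Pcsk7*, a convertase of the general secretory route, was higher (0.46, adjusted p = 0.00896).

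Adaptors that connect Trk receptors to their signaling were called in both directions in WAR N, with 2 of 21 higher and 2 lower (4 and 6 without Wistar N replicate 1). *Grb2*, the link to Ras, was lower by 0.86 in log2 value (9.19 ± 0.17 in WAR N and 10.05 ± 0.24 in Wistar N, SD, n = 4 each, limma adjusted p = 0.000839), and *Sh2b1*, which binds active Trk receptors, was at −0.35 (adjusted p = 0.0101). The docking proteins *Frs2* (0.63, adjusted p = 0.0102) and *Gab2* (0.47, adjusted p = 0.0443) were higher. Partners and effectors of p75 had 4 of 13 higher and 2 lower (6 and 2 without that array). *Ndn*, encoding necdin, which binds p75 and Trk receptors, was lower by 1.10 (adjusted p = 0.00276), while *Omg*, encoding a myelin ligand of the Nogo receptor complex, was at 0.89 (adjusted p = 0.00521), *Bex3*, encoding a death effector of p75, at 0.76 (adjusted p = 0.0047) and *Prdm4*, a zinc finger protein that binds p75, at 0.64 (adjusted p = 0.0059).

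Among 15 transcription regulators of *Bdnf*, 2 were higher and 1 lower in WAR N (5 and 2 without Wistar N replicate 1). *Creb1*, the gene of CREB, was at 0.39 (adjusted p = 0.0149) and *Camk4*, a kinase that activates CREB, at 0.42 (adjusted p = 0.0382), whereas *Usf1*, which binds E-boxes such as the one shown in the *Vgf* promoter, was at −0.69 (adjusted p = 0.00392). In the granule list (8 measured), limma called 1, *C1qbp*, a receptor of a VGF peptide (0.75, adjusted p = 0.0125), and without that array 4 were higher and 1 lower. Of the granins, which are packed into the same granules as VGF, *Chga* was at 0.16 (adjusted p = 0.625), *Chgb* at 0.28 (adjusted p = 0.327) and *Scg2* at −0.34 (adjusted p = 0.124). Leaving out Wistar N replicate 1 gave 0.46 (adjusted p = 0.00122), 0.51 (adjusted p = 0.00579) and −0.50 (adjusted p = 0.0039), so that *Chga* and *Chgb* were then higher in WAR N and *Scg2* was lower. Of 19 genes of other trophic factors, the growth factor *Mdk* was higher (0.98, adjusted p = 0.0011), *Lifr*, a receptor of leukemia inhibitory factor, was higher (0.34, adjusted p = 0.00863), and *Ret*, the receptor kinase of the GDNF family, was lower (−0.37, adjusted p = 0.023), against 3 higher and 2 lower without that array. Of these 20 named genes, 5 lost the call without at least 1 array, with highest adjusted p values of 0.127 for *Gab2* and 0.113 for *Camk4* (both without Wistar N replicate 4), 0.0878 for *Hap1* (without WAR N replicate 3), and 0.0713 for *Pcsk2* and 0.0751 for *Ret* (both without Wistar N replicate 3). With only the naïve arrays in the limma model 15 of the 20 lost it, within label set 1 all 20 lost it and within label set 2 6 lost it. The sets differed in size of effect, *Hap1* being at −0.24 in set 1 and −0.96 in set 2, *C1qbp* at 0.38 and 1.12 and *Prdm4* at 0.36 and 0.92. All 20 passed without Wistar N replicate 1, where 41.1% of all genes were called, in the same direction, for example *Ndn* at −1.36 (adjusted p = 9.2e-07) and *Omg* at 1.14 (adjusted p = 4.9e-07).

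In stimulated rats the activity-induced genes and the granule list had positive values throughout, although limma called 0 of either and 1 gene of each list had an unadjusted p under 0.05 (*Fosl2* and *Chgb*). All 11 measured activity-induced genes had a log2 fold change above 0 in WAR S over Wistar S, between 0.07 and 0.77 with a median of 0.41, beside 0.01 over all genes. The transcription factor genes *Fos* and *Egr1* had the highest values, 0.77 (adjusted p = 0.861) and 0.71 (adjusted p = 1). In naïve rats 5 of the 11 were above 0, the median was −0.03, and limma called 0 (1 higher and 3 lower without Wistar N replicate 1). The 8 granule genes lay between 0.04 and 0.53 in stimulated rats with a median of 0.29, and in naïve rats 7 of 8 were above 0 with a median of 0.18. *Bdnf* and *Vgf*, at 0.38 and 0.23, lay within the range of both lists. Genes of a list share the same 7 arrays and are not independent of each other.

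**Figure D3:**
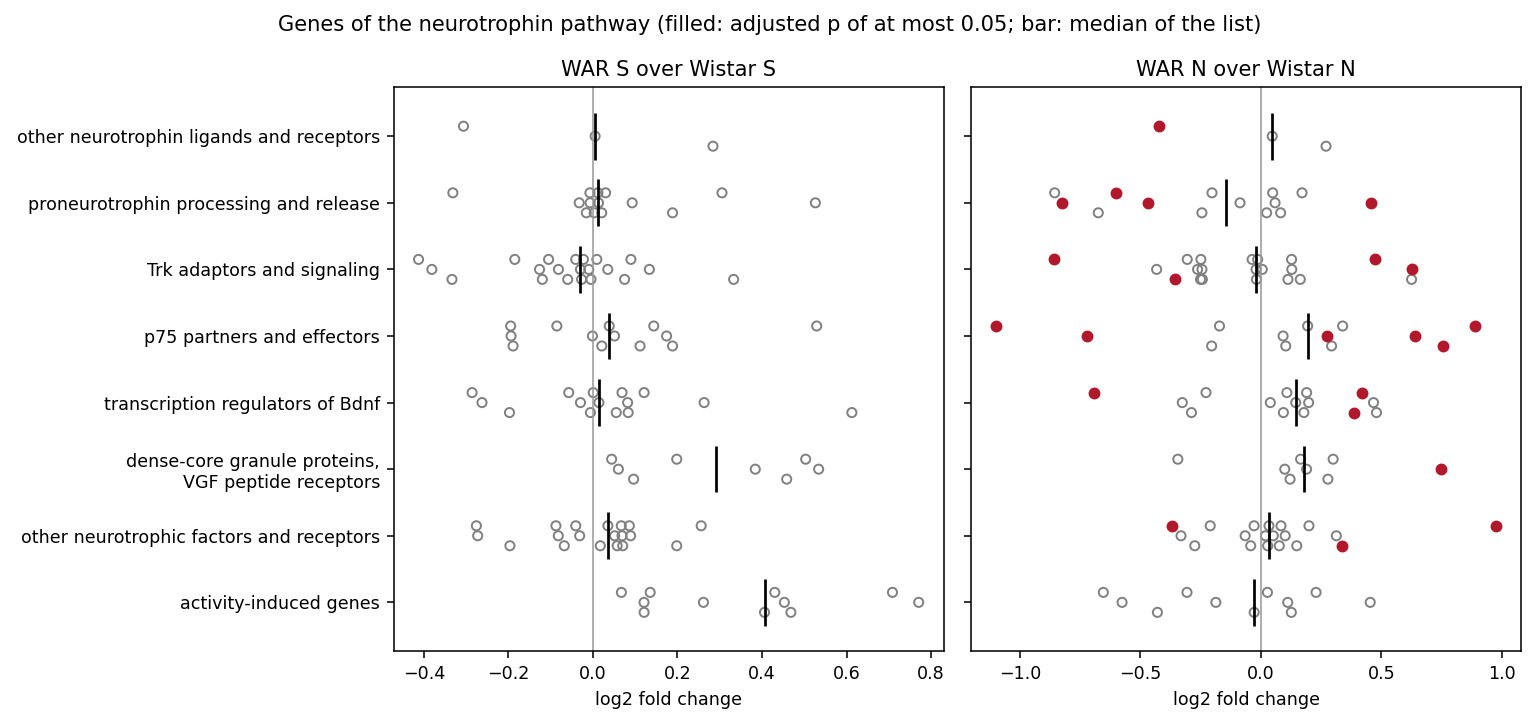
Log2 fold change of WAR over Wistar (horizontal axes, which differ) for each measured gene of the 8 lists, in stimulated rats (left) and naïve rats (right). Filled points passed an adjusted p of 0.05 and black bars are list medians. No gene is filled on the left, 22 are filled on the right on both sides of 0, and the activity-induced genes all lie above 0 on the left.

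For *Vgf* and *Ntrk3*, the members called in naïve rats, the genes most like them were found by Pearson correlation over the 15 arrays, after centring each gene on the mean of the stimulated or of the naïve arrays. Those most like *Vgf* were *Ubtf*, a factor of ribosomal RNA transcription (r = 0.949), *Sertm1* (r = 0.930) and *Nefh*, the heavy neurofilament of large axons (r = 0.925), and 10 genes exceeded 0.9. Within the stimulated arrays alone r was 0.881, 0.917 and 0.839 for these genes. For *Vgf* and all 3 of them, WAR S replicate 4 was the lowest stimulated array and WAR S replicate 5 the highest, so that these r values may lean on those arrays. *Nefh* held the identical value on WAR S replicates 1 and 2, and *Ubtf* on WAR S replicates 2 and 3. *Nefh* was lower in WAR N by 1.01 (limma adjusted p = 0.00414) and *Sertm1* by 0.96 (adjusted p = 0.00641), and *Ubtf* was at −0.21 (adjusted p = 0.0578). Those most like *Ntrk3* were *Gpbp1l1* (r = 0.958), *Tnrc6b*, which acts in silencing by miRNAs (r = 0.957), and *Med12l* (r = 0.955), and 112 genes exceeded 0.9. Within the stimulated arrays alone r was 0.867, 0.478 and 0.751 for these. On Wistar S replicate 1 and WAR S replicates 2, 3 and 4 *Gpbp1l1* held the identical value. Of the stimulated arrays, WAR S replicate 5 was the highest for both *Gpbp1l1* and *Ntrk3*, so that the r of 0.867 rests on few differing arrays. All 3 correlated genes were higher in WAR N, by 0.59, 0.38 and 0.55 (adjusted p of 0.00232, 0.00885 and 0.00254). These genes were picked by the same correlations, which describe 15 arrays that share a normalization within each part, and the strain difference in naïve rats enters them.

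**Figure D4:**
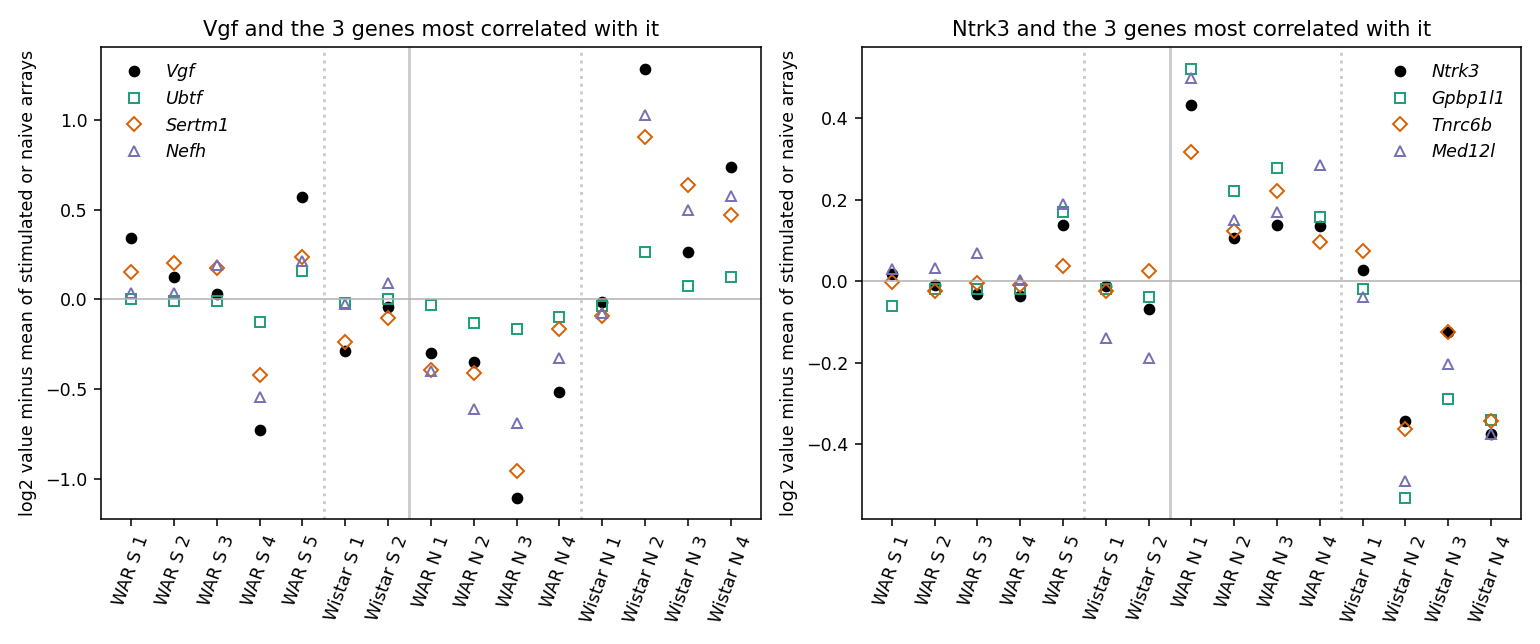
RMA log2 value minus the mean of the stimulated or of the naïve arrays (vertical axes) on each of the 15 arrays, for *Vgf* (left, black) and *Ntrk3* (right, black) and the 3 genes most correlated with each (open symbols). The genes of each plot move together across WAR N and Wistar N, with *Vgf* lower and *Ntrk3* higher in WAR N.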

How the data were processed

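Gene expression in the IC was measured in 15 samples on Rat Gene 1.0 ST arrays. The deposited values are log2 values that RMA gives after correcting the background, normalizing the arrays by quantiles and summarizing each probe set, in a version not given in the sources used here. The number of arrays sets the precision, since signal over background cannot be had from such values. Of 29214 probe sets, 15310 carried 1 gene symbol in the platform annotation, and the brightest per gene was kept, which left 14506 genes. Probe sets are given without coordinates, because no source used here names the genome build behind them. Promoter sequences are from RefSeq, assembly GRCr8.

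Strains were compared by moderated linear models (limma 3.58.1, R 4.3.3) with a mean for each of the 4 groups and a common spread over all 15 arrays, and p-values were adjusted by Benjamini-Hochberg over the 14506 genes. For single members an exact two-sided permutation test of the means was added (scipy 1.17.1). The limma step was tested on simulated data. The members and gene lists were chosen with earlier results of these data known. The genes named in the text were all members, *Ntf4*, the called genes of each list (at most 4 with the smallest p), and the 3 genes most correlated with each called member. Granins, activity-induced genes, cell type markers and *En2* and *Meis2* were named after their values were seen.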

Additional observations from a re-analysis of the deposited data

Results flagged for a closer look

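Among 24 sets of 4 or 5 arrays (the members and *Ntf4* in WAR S, WAR N and Wistar N), 3 held an array far from the others by Dixon's criterion, where chance gives about 1 in 20. *Sort1* was 11.43 in Wistar N replicate 1 and between 10.65 and 10.77 in the other Wistar N arrays. *Ntrk3* was 10.25 in WAR N replicate 1 and between 9.92 and 9.95 in the other WAR N arrays, and without that array its naïve strain difference was 0.33 (limma adjusted p = 0.0316). *Ngfr* was 7.11 in WAR S replicate 4 and between 6.83 and 6.91 in the other WAR S arrays.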

How the results depend on the processing

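The alternatives were the compared groups alone, the label set as a block, each label set alone, the replicate number as a block, the 3627 dimmest genes left out, all probe sets tested, the thresholds of the study's methods (a 2-fold change with an unadjusted p up to 0.05), a robust eBayes with a trend, array weights, cyclic loess within each part, the ratio of unlogged means, and each array left out in turn. Each member had 1 probe set, so that no other probe set could be tried. In naïve rats 2 members were called by limma as reported, 1 with the compared groups alone, 0 within label set 1, 3 within label set 2, and 1 at the methods' thresholds. The share of all genes called, 20.9% as reported, moved in the same direction in the first 3 of these alternatives. It was lower with the compared groups alone, lower still within label set 1, and higher within label set 2. These member counts are therefore not read beyond that share. Leaving out each array gave 1 to 5 called members in naïve rats, 0 in stimulated rats in every case, and 0 to 5 for the difference between the strain effects, the highest counts being without Wistar N replicate 1 and the lowest naïve count without WAR N replicate 3. Of the pathway genes, 17 to 46 were called in naïve rats and 0 to 1 in stimulated rats with an array left out, both highest without Wistar N replicate 1. With array weights 1 member, *Bdnf*, was called in stimulated rats and 5 members for the difference between the strain effects, where the methods' thresholds gave 1. These counts, and the 1 at the methods' thresholds in naïve rats, are not set beside a share of all genes here. They are not read as results about the members. The cause of these changes was not tested. The replicate numbers did not pair the samples (same-numbered naïve arrays correlated at 0.06, 0.02, −0.20 and −0.31). With the replicate block 0 members were called in stimulated rats, 2 in naïve rats and 0 for the difference. The shares of all genes for this block are not given here either.

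Signs turned for some of the log2 fold changes that limma did not call. In naïve rats these were, within label set 1, *Ngfr* at −0.14, *Sort1* at −0.070 and *Ntf4* at −0.015, within label set 2 *Ntf3* at −0.0082, and under cyclic loess *Ntf3* at −0.030, *Ngfr* at −0.040 and *Ntf4* at −0.0021. In stimulated rats *Ntf4* was at −0.014 with the label set or the replicate number as a block and at −0.0096 under cyclic loess. For the difference between the strain effects *Ngfr* and *Ntf4* were each at 0.039 within label set 1. With an array left out, *Ngfr* ran between −0.035 and 0.062 in naïve rats, −0.097 and 0.016 in stimulated rats and −0.11 and 0.0026 for the difference, *Ntf3* between −0.026 and 0.085 in naïve rats, and *Ntf4* between −0.0044 and 0.095, −0.011 and 0.018, and −0.090 and 0.0096 in the same order. *Ntrk3* and *Vgf* kept their direction in naïve rats under the 26 alternatives that give a fold change, and *Ntrk3* lost its call with the compared groups alone and within label set 1, *Vgf* within label set 1 and without WAR N replicate 3. At the methods' thresholds, which are not among these 26, *Ntrk3* at 1.33-fold was not called.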
